A study of Mus musculus with 6 samples.

Results

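Squalene epoxidase and the enzymes that act after it on the way to cholesterol were examined in tumours grown from mouse melanoma cells with and without knockdown of squalene epoxidase. The set holds 9 of the 55349 genes in the deposited count table, chosen by gene symbol: Sqle, Lss, Cyp51, Msmo1, Nsdhl, Hsd17b7, Ebp, Sc5d and Dhcr7. Each symbol matched 1 row, and all 9 were among the 13268 genes that passed a filter on low counts. The libraries came from subcutaneous tumours of B16F10, a pigmented mouse melanoma line. Of the 6 libraries, 3 were labelled shControl with genotype WT (replicates 1, 4 and 5, called W1, W4 and W5 as in their titles). The other 3 were labelled shSQLE with genotype SQLE knockdown (replicates 1, 2 and 5, called S1, S2 and S5), and neither group was treated. The labels used here give no age, sex or strain of the host animals, no hairpin sequence, and do not say whether a group rests on 1 clone or 1 hairpin. Whether each library is its own animal is not in the labels, so p-values rest on a spread between libraries that may not be a spread between animals.

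Cholesterol synthesis starts with the mevalonate arm, which builds the linear hydrocarbon squalene. Squalene epoxidase adds oxygen to squalene, lanosterol synthase closes the product into the first sterol, and a chain of membrane enzymes of the endoplasmic reticulum then removes methyl groups and moves or reduces double bonds until cholesterol is formed. Squalene epoxidase is a rate-limiting step whose protein is degraded when cholesterol is plentiful. Transcription of most enzymes of the pathway is driven by SREBP2, a sterol-regulated transcription factor, together with NF-Y and Sp1. Transcript levels, as measured here, do not report on enzyme protein or on sterol content.

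The promoters of the enzymes after Sqle are shown for Lss, Msmo1 and Dhcr7, because these 3 had the highest fold changes in the comparison described next. The RefSeq promoter table, on build GRCm38.p6, held windows of 300 bases (250 before and 50 after the start) for 8 of the 9 members, Sqle being the other. Since Dhcr7 had 3 windows, there were 10 windows in all, and for Dhcr7 the third is printed, chosen after its motifs were seen because it held the most (the other two hold no CCAAT). Only the 250 bases before the start are printed, 5′ to 3′ on the strand of the gene. Capitals mark CCAAT, the NF-Y motif, and GGGCGG, the Sp1 motif, on either strand (ATTGG and CCGCCC are their reverse complements).
Lss, chr10:76531355-76531604, plus strand: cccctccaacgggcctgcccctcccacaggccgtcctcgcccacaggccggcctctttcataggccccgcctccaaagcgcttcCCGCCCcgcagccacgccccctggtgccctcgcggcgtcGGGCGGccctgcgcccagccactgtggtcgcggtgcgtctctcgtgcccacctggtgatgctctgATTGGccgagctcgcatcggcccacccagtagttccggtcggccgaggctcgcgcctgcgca
Msmo1, chr8:64733579-64733828, minus strand: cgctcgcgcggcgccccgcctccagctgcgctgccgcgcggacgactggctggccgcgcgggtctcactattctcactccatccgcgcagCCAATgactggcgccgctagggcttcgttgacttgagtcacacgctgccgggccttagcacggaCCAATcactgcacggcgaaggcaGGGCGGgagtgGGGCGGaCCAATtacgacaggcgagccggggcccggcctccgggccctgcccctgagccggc
Dhcr7, chr7:143829964-143830213, plus strand: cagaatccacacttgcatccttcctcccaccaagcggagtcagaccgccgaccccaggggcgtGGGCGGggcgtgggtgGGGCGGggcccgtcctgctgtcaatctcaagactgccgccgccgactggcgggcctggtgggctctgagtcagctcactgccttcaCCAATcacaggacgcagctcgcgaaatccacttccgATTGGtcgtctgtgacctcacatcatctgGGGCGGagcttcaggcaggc
In these stretches CCAAT occurred 1 time for Lss, 3 times for Msmo1 and 2 times for Dhcr7, and GGGCGG 2, 2 and 3 times, with no overlap between the motifs. Of the 10 member windows of 300 bases, 8 held CCAAT, against 37.4% of all 32851 windows in the table. GGGCGG was in 9 of the 10, against 35.7% of all windows. Both motifs were in 8 of the 10, at least 1 window for each of the 8 genes, against 12.8% of all windows. The sequence TCACNCCAC, a strict form of the sterol regulatory element bound by SREBP, was in 0 of the 10 and in 1.24% of all windows. A match of letters is a description and not evidence of binding.

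Sqle itself was lower in all 3 shSQLE libraries than in any control, at about the same level within each group. Its level was 146 in W1, 151 in W4 and 148 in W5, in TMM-normalised CPM (counts scaled to the size of a library and then between libraries). It was 70.4 CPM in S1, 66.8 in S2 and 77.1 in S5, which was 47.5%, 45.0% and 52.0% of the control mean. The groups did not overlap, and this separation in the lower direction was seen for 3.35% of all tested genes. A log2 fold change of -1.05 resulted (SE 0.17, 95% confidence interval -1.44 to -0.67). In edgeR's quasi-likelihood test Sqle had an unadjusted p of 0.000173, rank 2 of the tested genes, of which 1.62% were lower in shSQLE with an unadjusted p under 0.05. Its Benjamini-Hochberg adjusted p in edgeR was 0.9996, which does not pass the threshold of 0.05. DESeq2 gave the same fold change with an adjusted p of 8.83e-05, on a fit that called 6 genes with its independent filtering set for 0.05, 0.0453% of those with an adjusted p. Set for 0.1, the filtering gave 8 genes. Over the other 13 alternative fits its adjusted p ran from 0.1709 to 1. The residual level cannot be divided between melanoma cells with incomplete knockdown and host cells, since in bulk tissue fewer cells of a type and less RNA per cell cannot be told apart.

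The spread of Sqle within a group was small. In shControl its coefficient of variation across CPM values was 1.83%, the 54th lowest of 13268 genes, where the median gene had 22.4%. Counting error alone gives 1.94% at the depth of Sqle in those libraries. In shSQLE it was 7.34%, against a median of 20.2% over all tested genes and a counting error of 2.75%. On the TPM scale (level per effective length, as a share of all transcripts and without further scaling between libraries) the coefficient was 11.1% in both groups, so the tightness of the control values depends on the scaling. The TPM values were 72.1 in W1, 58.0 in W4 and 63.0 in W5, against 26.2 in S1, 32.7 in S2 and 30.0 in S5, again without overlap, as for 4.61% of all tested genes in this direction.

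**Figure D1:**
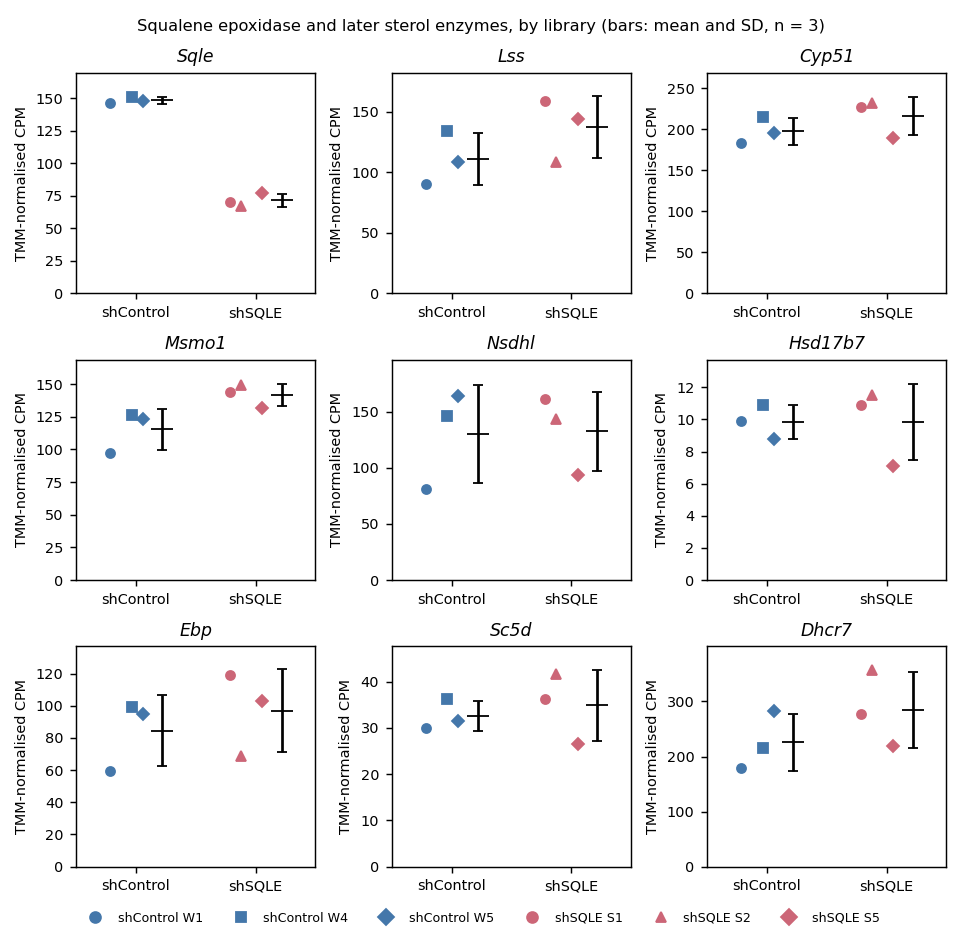
Each panel shows the TMM-normalised CPM of 1 enzyme (linear axis from 0) in the 3 shControl and 3 shSQLE libraries, with symbols for the library and a bar for the mean and SD. Sqle averaged 148 CPM with an SD of 2.71 in shControl and 71.4 CPM with an SD of 5.24 in shSQLE (n = 3 each), while the groups overlapped for the other enzymes except Msmo1.

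The 8 enzymes after Sqle differed little between the groups beside the difference of Sqle, and 0 passed the test in either direction. The count past an adjusted p of 0.05 in edgeR was 0 of 8, against 0% of all tested genes, and limma voom also called 0. At an unadjusted p under 0.05 the count was 0 of 8, against 3.11% of all tested genes (413 genes). DESeq2 called 0 of the 8, and at an unadjusted p under 0.05 it had 0 of 8 against 3.56% of all genes. The same unadjusted threshold in voom gave 0 of 8 against 2.82%. The median log2 fold change of the 8 enzymes was 0.16, against -0.016 over all tested genes, and the 8 values ran from 0.00 to 0.33. All 8 were above 0 with TMM scaling, Hsd17b7 by less than rounding shows, as were 47.4% of all tested genes. With library size alone 6 of 8 were above 0, and over the 14 alternative fits between 5 (without S2) and 8. Without W1 the median was 0.059, and without W4 or W5 it was 0.25. Without S1 it was 0.082 and without S5 it was 0.24.

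Lss, lanosterol synthase, uses the product of squalene epoxidase and makes lanosterol. It held 90.5 CPM in W1, 134 in W4 and 109 in W5, against 159 in S1, 109 in S2 and 144 in S5. On this scale the groups overlapped, because S2 lay among the controls. Its log2 fold change was 0.31 (SE 0.23), and the 95% confidence interval ran from 0.867-fold to 1.76-fold. That log2 value was 0.18 without W1, 0.19 without S1, 0.47 without W4 and 0.61 with the replicate block. The block is a term for replicate number. Only W1, S1, W5 and S5 have a number found in both groups, so they alone set its difference. Per length the levels were 35.5 TPM in W1, 40.8 in W4 and 36.7 in W5, against 46.8 in S1, 42.4 in S2 and 44.4 in S5. On the TPM scale the groups did not overlap, a separation in the higher direction found for 0.897% of all tested genes, so whether Lss separated the groups depended on the scaling.

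The level of Lss per Sqle transcript, a ratio within each library that scaling between libraries cannot move, was below 1 in each control and above 1 in each knockdown library. It was 0.492 in W1, 0.703 in W4 and 0.583 in W5, against 1.79 in S1, 1.30 in S2 and 1.48 in S5. Between the groups the log2 difference was 1.36 (exact two-sided permutation p = 0.1, the smallest that 3 against 3 can give). For all 8 enzymes the ratio to Sqle had groups that did not overlap, higher in shSQLE, with log2 differences from 1.03 for Hsd17b7 to 1.38 for Dhcr7. The same was true of 73.3% of all tested genes, since every such ratio carries the lower level of Sqle, so nothing particular to the 8 follows from it.

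Cyp51, the cytochrome P450 that removes the first methyl group of lanosterol, differed least between libraries of all 9 genes on the CPM scale, whereas on the TPM scale Lss did. It held 183 CPM in W1, 215 in W4 and 195 in W5, against 227 in S1, 232 in S2 and 189 in S5. Its highest library was 1.27 times its lowest in CPM and 1.55 times in TPM, where Lss had 1.32 times, and the groups overlapped. Cyp51 had a log2 fold change of 0.13 (SE 0.19), with a 95% confidence interval from 0.812-fold to 1.47-fold.

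The next 3 enzymes take off the remaining paired methyl groups, and only the first of them separated the groups. Msmo1, the methyl sterol oxidase, held 97.6 CPM in W1, 126 in W4 and 123 in W5, against 144 in S1, 149 in S2 and 132 in S5. All 3 knockdown libraries were above the 3 controls, a separation in the higher direction seen for 3.10% of all tested genes. For Msmo1 the log2 fold change was 0.29 (SE 0.19, edgeR unadjusted p = 0.152), the smallest p among the 8, and the exact permutation p was 0.1. On the TPM scale the groups of Msmo1 overlapped, at 79.6 to 86.4 TPM in shControl and 84.6 to 120.0 TPM in shSQLE.

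Nsdhl, the dehydrogenase of the same complex, varied more within the groups than between them. It held 80.8 CPM in W1, 146 in W4 and 164 in W5, against 161 in S1, 143 in S2 and 93.2 in S5. Both groups held a low library, W1 and S5. Nsdhl had a log2 fold change of 0.02 (SE 0.31, 95% confidence interval 0.626-fold to 1.65-fold), and its sign turned in 5 of the 14 alternative fits. Hsd17b7, the keto reductase that closes each round of demethylation, was the scarcest of the 9, with 129 to 227 counts per library. Its values were 9.91 CPM in W1, 10.9 in W4 and 8.79 in W5, against 10.9 in S1, 11.5 in S2 and 7.12 in S5. Both the lowest and the highest library of Hsd17b7 were in shSQLE, the group means were equal at 9.85 CPM, and the interval of the difference ran from 0.663-fold to 1.51-fold. Its sign turned in 8 of the 14 alternative fits.

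Ebp, the isomerase that moves the double bond in the sterol ring and is also known as the emopamil binding protein, resembled Lss in its pattern. It held 59.2 CPM in W1, 99.4 in W4 and 95.1 in W5, against 119 in S1, 68.5 in S2 and 103 in S5. Again W1 was lowest, S1 highest, and the groups overlapped. The fold change of Ebp was 0.19 on the log2 scale (SE 0.27), but -0.01 without W1. Sc5d, the desaturase that adds a double bond next, held 29.9 CPM in W1, 36.3 in W4 and 31.5 in W5, against 36.3 in S1, 41.7 in S2 and 26.6 in S5. As for Hsd17b7, the shSQLE group of Sc5d held both the highest and the lowest library. For Sc5d the log2 fold change was 0.10 (SE 0.22), and -0.05 without S2.

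Dhcr7, the reductase that gives cholesterol in the last step of one branch, had the largest fold change of the 8 with all libraries, with a wide error. It held 180.0 CPM in W1, 215 in W4 and 282 in W5, against 277 in S1, 357 in S2 and 219 in S5. The highest value was in S2, but S5 lay near the middle of the controls, so the groups overlapped. Its log2 fold change was 0.33 (SE 0.26), with a 95% confidence interval from 0.839-fold to 1.89-fold. That log2 value was 0.14 without S2, 0.19 without W1, 0.50 without S5 and 0.53 without W5, and 0.13 with the replicate block. Without S2 and with the block the values of Lss, Msmo1 and Ebp were larger than that of Dhcr7. For none of the 8 did the interval reach the 0.482-fold level of Sqle, and the upper bounds ran from 1.47-fold for Cyp51 to 1.89-fold for Dhcr7.

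**Figure D2:**
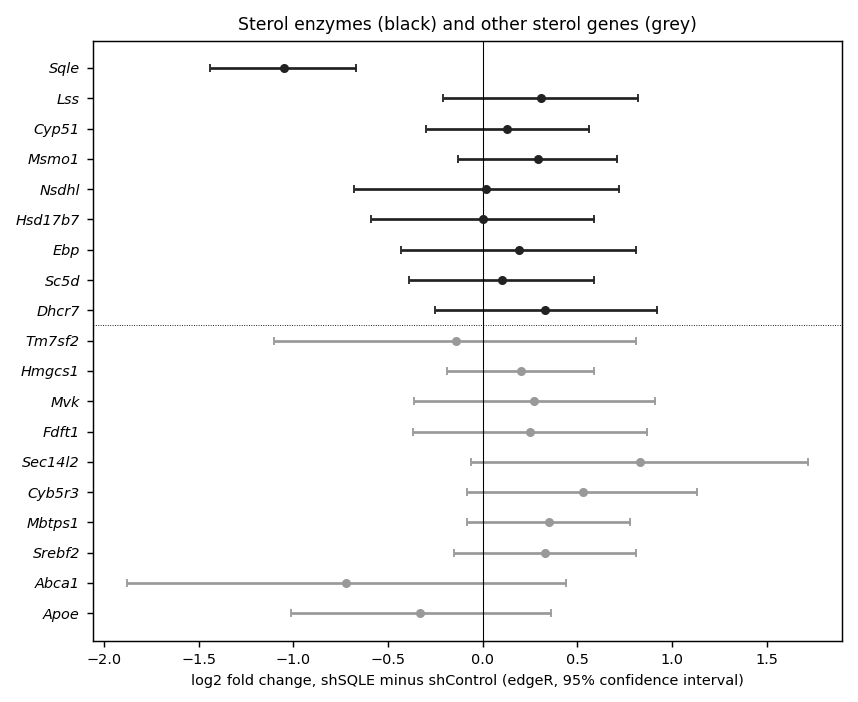
Points give the edgeR log2 fold change, shSQLE minus shControl, with its 95% confidence interval, for the 9 enzymes in pathway order (black) and for named genes of the other sterol lists (grey). Only the interval of Sqle, -1.44 to -0.67, leaves out 0.

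Per length, the transcripts of the pathway differed widely in level, and the order of the group means of the 8 enzymes after Sqle was the same in both groups. In shControl the order of mean levels (± SD, n = 3) began with Dhcr7 at 114 ± 23.4 TPM and Msmo1 at 81.9 ± 3.89 TPM. Ebp followed at 74.2 ± 12.2 TPM, Nsdhl at 72.6 ± 19.6 TPM, Sqle at 64.4 ± 7.14 TPM and Cyp51 at 59.6 ± 3.14 TPM. The lowest were Lss at 37.7 ± 2.78 TPM, Sc5d at 17.9 ± 0.906 TPM and Hsd17b7 at 2.60 ± 0.36 TPM. Neighbours in this order overlapped from Msmo1 to Cyp51, whereas Dhcr7 lay above Msmo1 and the steps from Cyp51 down to Hsd17b7 were apart in all 3 libraries. Within single libraries Sqle had rank 3 among the 9 in W1 and rank 5 in W4 and W5. In S1, S2 and S5 it had rank 7, between Lss and Sc5d. Lss, which Sqle passed, had rank 7 in all 3 controls and rank 6 in all 3 knockdown libraries. Dhcr7 had rank 1, Sc5d rank 8 and Hsd17b7 rank 9 in all 6 libraries. Over all 6 libraries the mean level of Dhcr7 per length stood at percentile 92.3 of the tested genes, that of Sqle at 81.5 and that of Hsd17b7 at 25.6.

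**Figure D3:**
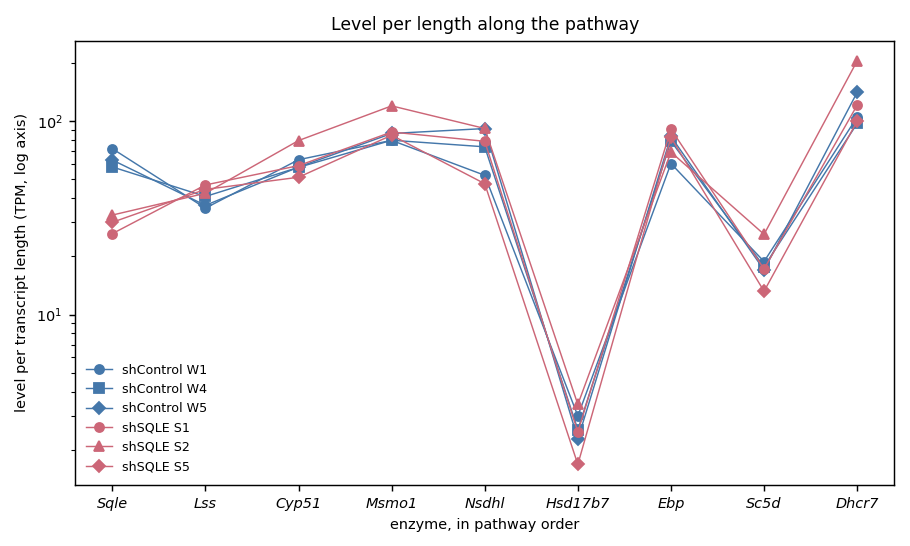
The level per transcript length (TPM, log axis) of the 9 enzymes is drawn in pathway order, with 1 line per library. The lines of the 2 groups part at Sqle, at 58.0 to 72.1 TPM in shControl and 26.2 to 32.7 TPM in shSQLE, and run among each other from Cyp51 to Dhcr7.

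Between neighbouring steps after Lss, the ratio of levels within a library had overlapping groups except for Msmo1 per Cyp51. Cyp51 per Lss was 1.41 to 1.78 in shControl and 1.16 to 1.87 in shSQLE. Msmo1 per Cyp51 was 1.26 to 1.49 in shControl and 1.49 to 1.65 in shSQLE, with all 3 knockdown libraries above the controls by less than the rounding shows. Nsdhl per Msmo1 was 0.659 to 1.06 in shControl and 0.561 to 0.895 in shSQLE, and Hsd17b7 per Nsdhl was 0.0248 to 0.0569 and 0.0314 to 0.0374. Ebp per Hsd17b7 was 20.2 to 36.7 in shControl and 20.1 to 49.0 in shSQLE. Sc5d per Ebp was 0.204 to 0.312 in shControl and 0.160 to 0.375 in shSQLE, and Dhcr7 per Sc5d was 5.48 to 8.28 and 7.05 to 7.90. No test was run on these ratios. The share of other gene pairs that separate in this way is not given here, so nothing particular to Msmo1 per Cyp51 follows.

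The 8 enzymes tended to vary together across libraries, and their means overlapped between the groups, but which library was lowest or highest depended on the scaling. Their mean was 6.07 log2 CPM in W1, 6.50 in W4 and 6.44 in W5, against 6.66 in S1, 6.56 in S2 and 6.30 in S5. On this scale 6 of the 8 were lowest in W1 and the other 2, Hsd17b7 and Sc5d, in S5. Highest values fell in S2 for 5 genes, in S1 for Lss and Ebp and in W5 for Nsdhl. On the TPM scale 4 of the 8 were lowest in S5, 3 in W1 and 1 in W4, and 6 were highest in S2 and 2 in S1. The mean of log2 TPM was 5.20 in W1, 5.26 in W4 and 5.35 in W5, against 5.38 in S1, 5.68 in S2 and 5.08 in S5. Of the 28 pairs among the 8, 25 had a positive Pearson r of log2 CPM over the 6 libraries, with a median of 0.535 (20 of 28 and 0.515 for log2 TPM). Cyp51 and Sc5d (0.92), Lss and Ebp (0.91) and Hsd17b7 and Sc5d (0.90) were the closest pairs. The negative pairs joined these sets, Hsd17b7 with Ebp (-0.24), Lss with Hsd17b7 (-0.12) and Ebp with Sc5d (-0.08). All values share the scaling factor of their library, and the correlations are descriptions of 6 libraries. The share of positive pairs over all tested genes is not given here, so nothing particular to the 8 follows.

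**Figure D4:**
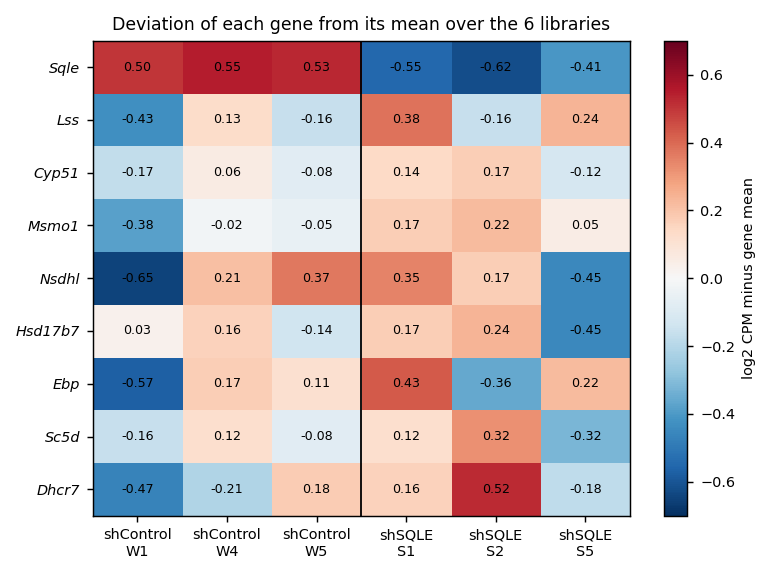
The colour and number in each cell give log2 CPM minus the mean of that gene over the 6 libraries. Sqle is at 0.50 to 0.55 in shControl and -0.62 to -0.41 in shSQLE, while W1 holds the lowest value for 6 of the other 8 enzymes on this scale, and for 3 of 8 in TPM.

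Markers of host cells differed between the libraries as well. All 10 melanocyte markers were detected, with a summed level of 13600 to 15800 CPM in shControl and 15000 to 17600 CPM in shSQLE. Fibroblast markers summed to 569 CPM in W1, 150 in W4 and 439 in W5, against 66.1 in S1, 317 in S2 and 444 in S5, with 9 of 10 tested and all 9 at a negative fold change. Macrophage markers (12 of 12 tested, 11 of them at a negative fold change) ranged from 164 to 546 CPM in shControl and from 93.9 to 489 CPM in shSQLE. Endothelial markers, 10 of 10 at a negative fold change, ranged from 48.9 to 165 CPM in shControl and from 57.1 to 86.8 CPM in shSQLE. The library with the lowest enzyme mean in CPM, W1, had the highest fibroblast and endothelial sums. The one with the highest, S1, had the lowest fibroblast and macrophage sums. The match was partial, since the highest macrophage sum, 546 CPM, was in W5 and the lowest endothelial sum, 48.9 CPM, in W4. In TPM the enzyme mean was lowest in S5 and highest in S2, which does not match the marker sums in CPM. Marker sums in TPM are not given here. With the macrophage mean as a covariate the log2 fold change of Sqle was -1.04 and the median of the 8 enzymes 0.10, and the part of the other cell types was not tested. Skeletal muscle markers (11 of 12 tested, all 11 at a positive fold change) summed to 16.1 to 190.0 CPM in shControl and to 35.4 CPM in S1, 85.5 in S2 and 1780 in S5. Red cell markers, 6 of 6 at a positive fold change, summed to 28700 CPM in S1 and to 2850 to 7650 CPM in the other libraries. Adipocyte markers, 5 of 9 tested and all 5 at a negative fold change, ranged from 21.6 to 350.0 CPM in shControl and from 20.6 to 35.0 CPM in shSQLE. Of the T and NK cell markers 2 of 10 were tested, and all 10 together summed to at most 13.4 CPM. Keratinocyte markers, of which Krt1, Krt15 and Flg were at 0 in all libraries, summed to at most 1.37 CPM, and 0 of 10 were tested.

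In the other sterol lists 0 genes passed the test in either direction. Of the 9 enzymes of the mevalonate arm, 0 passed edgeR's test in either direction, and 7 had a positive fold change (median 0.16). Fdft1, squalene synthase, which makes the substrate of Sqle, held 78.4 CPM in W1, 152 in W4 and 149 in W5, against 175 in S1, 143 in S2 and 133 in S5. The groups overlapped, and its log2 fold change was 0.25 (SE 0.27). Hmgcs1, which condenses the first building block of the mevalonate arm, was at 0.20 (SE 0.17), and mevalonate kinase Mvk at 0.27 (SE 0.28). Expected counts of Fdft1 and Hmgcs1 were not whole in any library, so some of their reads may be shared with other genes.

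Of 5 further listed genes of the post-squalene pathway 4 were in the table by the symbol used, and 0 passed in either direction (median -0.03). Tm7sf2, a sterol reductase that acts after Cyp51, was at -0.14 (SE 0.42). Its expected counts were not whole in 3 libraries.

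Among 8 redox and protein partners of the enzymes 0 passed edgeR's test (median 0.01). Sec14l2, a lipid carrier known in rat as a factor that stimulates squalene conversion, had the largest value at 0.83 (SE 0.39, unadjusted p = 0.0647). It held 11.1 CPM in W1, 16.7 in W4 and 10.3 in W5, against 10.3 in S1, 27.0 in S2 and 30.3 in S5. Its high values were in S2 and S5, and it did not pass the test over all genes. Cyb5r3, which reduces the cytochrome b5 that supplies electrons to Msmo1 and Sc5d, was at 0.53 (SE 0.27, unadjusted p = 0.083).

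Of 12 genes of SREBP control and sterol uptake, 0 passed and 4 had a positive fold change (median -0.06). Mbtps1, the protease that first cleaves SREBP, held 69.9 CPM in W1, 52.9 in W4 and 56.5 in W5, against 70.9 in S1, 86.1 in S2 and 71.7 in S5. In CPM the groups did not overlap by a narrow margin, a separation in the higher direction seen for 3.10% of all tested genes. On the TPM scale they overlapped, since W1 at 23.7 TPM lay above S1 at 18.0 and S5 at 19.1. The log2 fold change of Mbtps1 was 0.35 (SE 0.19, edgeR unadjusted p = 0.1). Srebf2, which encodes SREBP2, was at 0.33 (SE 0.21). Of 6 genes of the LXR list, the oxysterol receptor and its targets, 0 passed and 5 had a negative value (median -0.39). Abca1, a cholesterol exporter that macrophages also express, was at -0.72 (SE 0.51), and Apoe, the apolipoprotein, at -0.33 (SE 0.30). The macrophage sums given earlier had their lowest value in S1, where Abca1 was also lowest at 1.13 CPM. The match was partial, since Abca1 was highest in W1 at 6.26 CPM and the macrophage sum in W5. Apoe was at 1650 CPM in S1, within its shControl values of 1160 in W1, 1520 in W4 and 2010 in W5. The part of macrophages in these values was not tested.

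The genes closest to Sqle in pattern, by root mean square difference of centred log2 CPM over the 6 libraries, were no sterol enzymes. Ctf1, a cytokine gene, differed from it by 0.09, Adgrg3, an adhesion receptor gene, by 0.10 and Itpr3, a calcium channel of the endoplasmic reticulum, by 0.16. C430042M11Rik and Cgas, the cytosolic DNA sensor, each differed by 0.17. Of these only Itpr3 and Cgas were above 1 CPM in every library, and Itpr3 held 8.71 CPM in W1, 10.5 in W4 and 9.45 in W5. It held 5.80 CPM in S1, 4.36 in S2 and 4.52 in S5, a log2 fold change of -0.96 (SE 0.25). This likeness was measured over the same contrast of groups, so it is a description.

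The genes closest to the mean of the 8 other enzymes, by Pearson r over the 6 libraries, were Naa40 (0.990), Lrrc20 (0.989), Supt7l (0.989), Mapk15 (0.983) and Capn10 (0.980). These 5 are in none of the sterol lists, and 13259 genes were ranked. Of the sterol genes, named after their values were seen, Fdft1 had an r of 0.93 (rank 36) and Erg28, known in yeast as a scaffold of the demethylation complex, an r of 0.91 (rank 70).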

How the data were processed

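The 6 RNA sequencing libraries analysed, 3 per group, came from subcutaneous B16F10 tumours, with groups and replicate numbers taken from the titles. The number of tumours behind them is not in the labels. The authors deposited 1 table of expected counts per gene, with gene lengths and effective lengths. The submitters' processing notes name RSEM, STAR, FastQC, DESeq2 and the build GRCm39. For versions, annotation release and strand use: not given in the sources used here. In such counts RSEM divides reads that match several genes. Fractional entries made up 11.4% to 12.7% of those above 0, and 0 of those of the 9 enzymes. Library totals ranged from 16408622 to 19142185.

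Counts were rounded, filtered with filterByExpr (minimum count 10, minimum total 15) and scaled by TMM (factors 0.928 to 1.12). Groups were compared by the quasi-likelihood test of edgeR 4.0.16 in R 4.3.3 (robust, group as the sole term) over 13268 genes, with p-values adjusted by Benjamini-Hochberg and called below 0.05. SE is the fold change divided by the square root of F. Log2 CPM used a prior count of 2, and TPM was computed from deposited effective lengths, 1 per gene. Genes with no symbol numbered 1337. No pair of libraries agreed within sampling noise (chi-square per degree of freedom at least 37.2). The 9 enzymes, gene lists and tests were chosen with earlier results of these data known.

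Named genes are the 9 enzymes, the 2 genes with the smallest p in each sterol list, Fdft1, and the 5 genes nearest in pattern; some genes are not reported here. Alternatives were other scalings and filters, DESeq2 1.42.0, limma 3.58.1 (voom), a replicate block, a macrophage covariate and each library left out. DESeq2, run on the same filtered genes with independent filtering at 0.05, gave an adjusted p for 13247 genes; the others stayed missing. Scripts were tested on simulated data. Figures used matplotlib 3.10.9 in Python 3.11.15. Intervals cover the spread between libraries. Promoter sequences and their printed coordinates are from RefSeq on GRCm38.p6, which differs from the build of the counts. No coordinates are given on the build of the counts.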

Additional observations from a re-analysis of the deposited data

How the results depend on the processing

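The log2 fold change of Sqle kept its sign in all 14 alternative fits, from -1.12 (library size alone) to -1.0, and from -1.11 to -1.0 with 1 library left out. It passed the threshold in DESeq2 (-1.05, adjusted p = 8.83e-05) and in no other of the 14. Its rank by p, 2 with all libraries, was 126 without S1 and 24 with the macrophage covariate. The count of genes past the threshold, 0 in edgeR, was 6 in DESeq2 and 31 without S1. Without each of the other 5 libraries it was 0, and with the replicate block 41. Only W1, S1, W5 and S5 set the difference in that block. Why this count moved was not tested. With DESeq2's independent filtering set for 0.1, chosen after seeing the data, it was 8 (Sqle -1.05, adjusted p = 8.149e-05), and 6 with no such filtering (Sqle -1.05). The Lss to Sqle log2 ratio was 1.24 to 1.49 with 1 library left out. The count of the 8 later enzymes past the threshold was 0 in every fit.

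Replicates 1 and 5 carry the same number in both groups, and deviations from the group means correlated at -0.13 for replicate 1 and 0.07 for replicate 5. Whether libraries of the same number were paired is not in the labels. These correlations cannot decide it, since each rests on deviations from a mean of 3 libraries. In the replicate block W4 and S2 have no partner of the same number, so W1, S1, W5 and S5 alone set the difference. With this block Sqle was at -1.0 (edgeR adjusted p = 0.1894, rank 100). The median of the 8 was 0.13, with Lss at 0.61, Ebp at 0.56 and Dhcr7 at 0.13.

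Of 112 single-enzyme values 97 kept their sign. Hsd17b7 turned with library size alone (-0.06), voom (-0.02), the block (-0.08), the macrophage covariate (-0.13), without W5 (-0.07), S1 (-0.08) and S2 (-0.12), and was 0.00 with a filter of 1 CPM in 3 libraries. Nsdhl turned with library size alone (-0.02), the covariate (-0.11), without W1 (-0.23), S1 (-0.14) and S2 (-0.03). Ebp turned without W1 (-0.01) and Sc5d without S2 (-0.05). Leaving out other libraries gave values up to 0.20 for Hsd17b7, 0.22 for Nsdhl, 0.39 for Ebp and 0.27 for Sc5d. With 1 library left out Lss ran from 0.18 to 0.47, Dhcr7 from 0.14 to 0.53, Msmo1 from 0.18 to 0.36 and Cyp51 from 0.08 to 0.22. Hsd17b7 had the highest counting error of these enzymes, 7.54% in shControl and 7.39% in shSQLE. Its coefficient of variation in CPM was 10.5% in shControl and 24.3% in shSQLE. The part of depth in the turns of sign was not tested.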
